A study of Mus musculus with 6 samples.

Results

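The genes described here are the core of the transforming growth factor beta (TGF-beta) system in the mouse lung at E18.5, shortly before birth: the ligands Tgfb1, Tgfb2 and Tgfb3, the receptors Tgfbr1, Tgfbr2 and Tgfbr3, and the latent binding proteins Ltbp1, Ltbp2, Ltbp3 and Ltbp4. Every probe set of the Affymetrix Mouse430_2 array whose annotation names 1 gene, that gene being a member, was taken, which gave 24 probe sets for the 10 genes, out of 34945 such probe sets for 18193 genes. Total RNA of embryonic lungs was hybridised to 6 arrays. Of these, 3 are titled as GATA6 knockouts (KO 1, KO 2, KO 3), and the other 3 as wild type (WT 1, WT 2, WT 3). The series asks which genes the transcription factor GATA6 regulates in the lung. The strain, the kind of Gata6 allele, any Cre line that made the null tissue, and whether an array holds the RNA of 1 embryo or of several are not given in the sources used here, so p-values measure the spread between these arrays.

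The arrays carried the markers of lung. All 6 epithelial markers tested (Nkx2-1, Sftpc, Sftpb, Ager, Scgb1a1 and Epcam) were above the array's median in at least 1 group, and the 3 thymus markers were dim in both. The targeted gene, Gata6, was not lower in the arrays labelled KO: on its brightest probe set KO 1 to KO 3 gave 11.58, 11.39 and 11.19 log2, against 11.12, 10.26 and 10.42 for WT 1 to WT 3. Where these probes lie relative to the deleted part is not known here, so they check neither the deletion nor the labels, and every direction below is between arrays by their labels. The experiment files place KO 1, KO 2, KO 3 and WT 3 on fluidics station 2 and the other arrays on station 1, so that the comparison within station 2 sets the 3 arrays labelled KO against WT 3 alone. The arrays labelled KO were scanned after those labelled WT, and scan order and label cannot be told apart.

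TGF-beta ligands are secreted as latent complexes. In such a complex the cleaved propeptide still wraps the growth factor, and a latent TGF-beta binding protein (LTBP) can tie it to fibrillin and fibronectin fibres outside the cell. Integrins and proteases release the ligand, which binds the type II receptor Tgfbr2. That kinase then phosphorylates the type I receptor Tgfbr1, which passes the signal to SMAD2 and SMAD3. In the lung the pathway acts on branching, on smooth muscle and fibroblasts, and on the elastic matrix that alveolar walls are built on.

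In the arrays labelled KO the ligand and receptor genes mostly read slightly lower than in those labelled WT, and Ltbp3 read higher on all of its probe sets. Values are log2(intensity + 16), and a difference is the mean of the arrays labelled KO minus that of the arrays labelled WT. None of the 24 probe sets passed limma's test, with an adjusted p between 0.963 and 0.986, and none of all 45037 probe sets tested did either (0%). At an unadjusted p under 0.05 there were 2 of the 24, 1 of Tgfb1 and 1 of Ltbp3, where 1394 of all probe sets (3.10%) had one. Of the 24, 4 were dim, meaning that neither group's mean reached 5.30 log2, the median over all probe sets. Among the 20 others 16 read lower in the arrays labelled KO, with a median difference of -0.15, while 51.3% of all 22912 probe sets that were not dim read lower, with a median of -0.0074. Among the 16, 1420893_a_at of Tgfbr1 is not dim only through the arrays labelled WT (mean 5.35, against 5.21). A filter on the mean of all 6 arrays leaves it out and keeps 19 of the 24. The 2 with an unadjusted limma p under 0.05 were among these 20, and 1172 of those 22912 probe sets had one. In 2 of the 20, 1 of Tgfb1 and 1 of Ltbp1, every array labelled KO was lower than any labelled WT, and in 0 every one was higher. Among all probe sets that were not dim these shares were 5.12% and 4.57%. A group of 3 arrays against 3 cannot reach an exact permutation p below 0.1 for a single probe set.

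**Figure D1:**
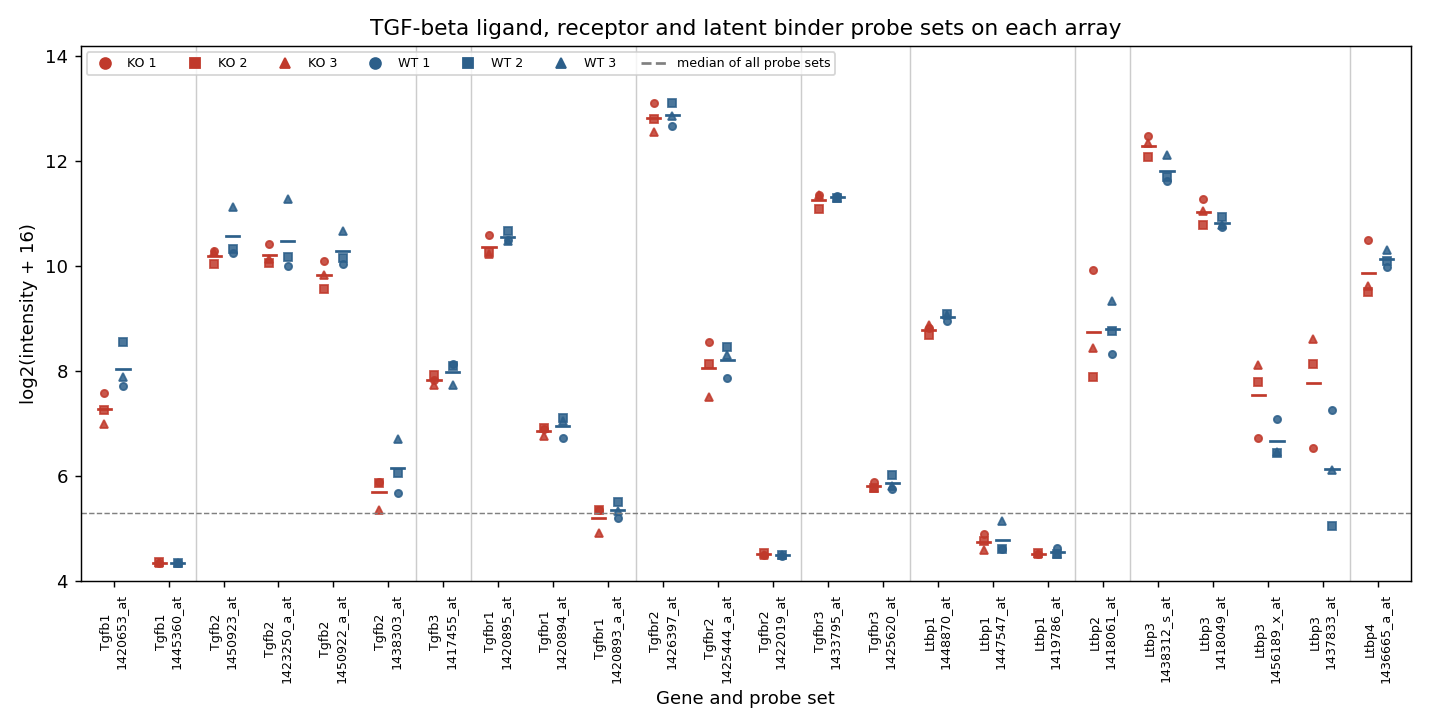
Each point is 1 array's log2(intensity + 16) for 1 of the 24 probe sets of the 10 genes, with arrays labelled KO (red) left of those labelled WT (blue), short lines at the group means and the dashed line at the median of all probe sets. The groups overlap in all probe sets but 1420653_at of Tgfb1 and 1448870_at of Ltbp1, where the arrays labelled KO lie lower.

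**Figure D2:**
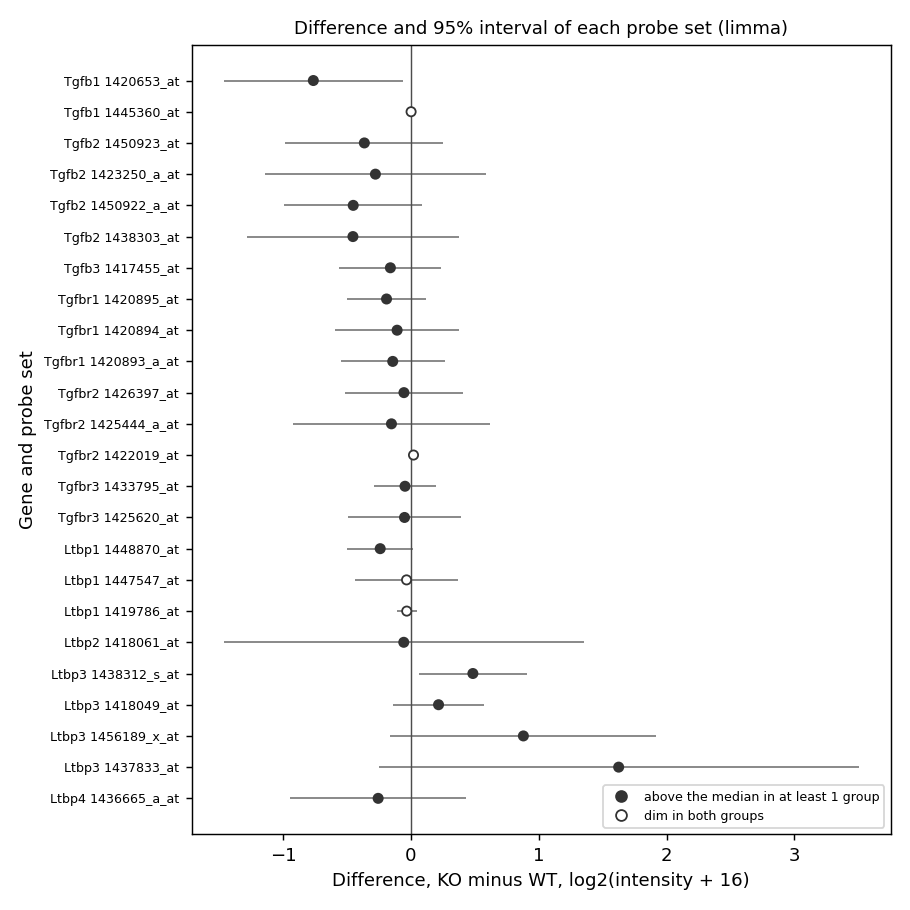
Difference between the arrays labelled KO and WT in log2(intensity + 16) for each of the 24 probe sets, with its unadjusted 95% interval from limma and open circles for the 4 dim probe sets. The intervals of 1420653_at of Tgfb1 (-1.46 to -0.06) and 1438312_s_at of Ltbp3 (0.06 to 0.91) leave out 0, and neither probe set passed the adjusted test.

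Tgfb1 and Ltbp3 hold the 2 member probe sets with an unadjusted p under 0.05, one lower and one higher in the arrays labelled KO, and the 250 bases before their RefSeq start sites are therefore shown (RefSeq, GRCm38.p6, 5′ to 3′ on the gene's strand). Capitals mark CG dinucleotides. The Tgfb1 window is chr7:25686752-25687001 on the plus strand and the Ltbp3 window is chr19:5740650-5740899 on the plus strand.
Tgfb1: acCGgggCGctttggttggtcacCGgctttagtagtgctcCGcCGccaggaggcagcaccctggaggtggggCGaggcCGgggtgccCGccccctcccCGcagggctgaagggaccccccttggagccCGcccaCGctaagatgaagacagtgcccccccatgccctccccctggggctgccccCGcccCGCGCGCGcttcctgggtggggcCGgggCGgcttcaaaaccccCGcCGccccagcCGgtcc
Ltbp3: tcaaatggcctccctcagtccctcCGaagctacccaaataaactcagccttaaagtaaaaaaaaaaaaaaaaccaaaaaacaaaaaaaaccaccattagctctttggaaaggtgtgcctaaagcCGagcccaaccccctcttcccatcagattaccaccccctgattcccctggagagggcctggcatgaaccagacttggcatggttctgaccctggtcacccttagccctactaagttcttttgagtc
The Tgfb1 window holds 75.2% G and C and 21 CG dinucleotides. The Ltbp3 window holds 47.2% and 2, where the median over all 32851 windows of that length was 52.4% and 6. The letters AGATAA and TGATAA, which contain the GATA core, were searched on both strands. They stood in 0 of the 12 windows available for 8 of the 10 genes, where 9.99% and 7.94% of all windows hold them. Other forms of the GATA core were not counted, and the core itself, on either strand, does stand in windows of Ltbp1, Ltbp2 and Tgfbr2. The 12 windows are not all separate, since some of Ltbp4 overlap. The AP-1 motif TGACTCA (4.46% of all windows) and the CAGA-type SMAD motif AGCCAGACA (0.301%) also stood in 0 of the 12.

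Tgfb1, the ligand best known from immune control and fibrosis, read lower in every array labelled KO than in any labelled WT on its brighter probe set. Probe set 1420653_at read 7.60, 7.26 and 7.01 in KO 1, KO 2 and KO 3, against 7.72, 8.56 and 7.89 in WT 1, WT 2 and WT 3. The groups did not overlap, and the gap between KO 1 and WT 1 was 0.12. The means were 7.29 ± 0.29 in the arrays labelled KO and 8.05 ± 0.44 in those labelled WT (SD, n = 3 each), a difference of -0.76 (SE 0.28, limma adjusted p = 0.963), or 0.589-fold on this scale. The unadjusted 95% interval ran from -1.46 to -0.06. Leaving out 1 array at a time gave -0.93 (without WT 1) to -0.51 (without WT 2), and within station 2 the difference was -0.60 (SE 0.37, limma adjusted p = 1). The other Tgfb1 probe set, 1445360_at, read 4.35 to 4.36 on all 6 arrays, near the lowest value of 4.17, and gives no information on the gene.

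The mean of 5 endothelial markers followed Tgfb1 within each label but not between the labels. All 5 (Pecam1, Cdh5, Kdr, Tek and Tie1) read lower on average in the arrays labelled KO, with a median difference of -0.68 and none past the test, and none was dim. Their mean was 9.56, 8.80 and 8.70 in KO 1, KO 2 and KO 3, and 9.17, 10.13 and 9.84 in WT 1, WT 2 and WT 3. Their summed intensity was 2307 to 3900 in the arrays labelled KO and 3041 to 5752 in those labelled WT. Within each label Tgfb1 had the same order as the mean of these markers, KO 1 above KO 2 above KO 3 and WT 2 above WT 3 above WT 1. Not every marker had this order. Tek and Tie1 read higher in KO 3 (9.38 and 8.87) than in KO 2 (9.17 and 8.67), and the sum was 2310 against 2307. Between the labels the order differed, since KO 1 stood above WT 1 in the markers and below it in Tgfb1. Platelets and leukocytes are other known sources of Tgfb1. Of the 4 platelet markers 2 read lower (median difference 0.04, 1 dim, Gp9), with a summed intensity of 1003 to 1888 in the arrays labelled KO and 1143 to 1638 in those labelled WT. Of the 5 macrophage and leukocyte markers 3 read lower (median -0.07), with sums of 6577 to 33448 in the arrays labelled KO and 12394 to 27913 in those labelled WT. Lyz2, which alveolar type II cells also express, made up 82.9% to 95.8% of these sums. The other 4 (Ptprc, Csf1r, Adgre1 and Cd68) summed to 1126 to 1478 in the arrays labelled KO and 937 to 1499 in those labelled WT, and 2 of them read lower. Tgfbr2 on probe set 1426397_at had the same order within each label as Tgfb1. The brightness of unnamed relative to named probe sets, given with Ltbp3 below, ran in the opposite order within each label. With that measure, chosen after seeing the data, as a covariate the Tgfb1 difference was -0.62 (SE 0.20). The part of any of these cells, or of that measure, in the Tgfb1 difference was not tested. In whole lung, fewer cells of a type and less RNA per cell cannot be told apart.

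**Figure D3:**
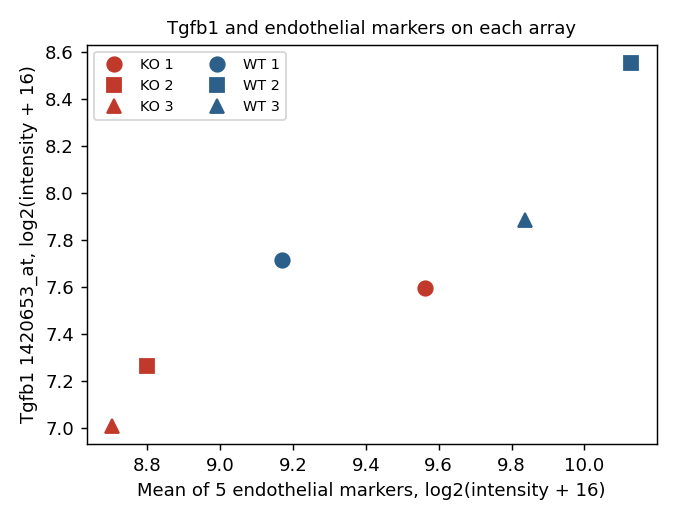
Tgfb1 (probe set 1420653_at) against the mean of 5 endothelial markers, both in log2(intensity + 16), with 1 point per array, red for arrays labelled KO and blue for those labelled WT. WT 2 is highest on both axes (8.56 and 10.13) and KO 3 lowest on both (7.01 and 8.70).

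Tgfb2, a ligand made by lung epithelium and mesenchyme and needed for heart and lung development in mice, read lower on average on all 4 of its probe sets, with WT 3 the highest array on each. The brightest, 1450923_at, read 10.29, 10.05 and 10.28 in KO 1, KO 2 and KO 3, against 10.25, 10.34 and 11.13 in WT 1, WT 2 and WT 3. WT 3 stood apart above the other 5 arrays, which lay within 10.05 to 10.34 and overlapped between the labels. The means were 10.21 ± 0.13 in the arrays labelled KO and 10.57 ± 0.48 in those labelled WT (SD, n = 3 each), a difference of -0.36 (SE 0.25, limma adjusted p = 0.963). Without WT 3 the difference was -0.09. Within station 2, where WT 3 is the sole array labelled WT, it was -0.92 (SE 0.19, limma adjusted p = 0.991).

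The other Tgfb2 probe sets had differences of like size. Probe set 1423250_a_at read 10.43, 10.07 and 10.14 in KO 1 to KO 3, against 10.01, 10.18 and 11.28 in WT 1 to WT 3. Its difference was -0.28 (SE 0.35), and it was 0.12 without WT 3. Probe set 1450922_a_at read 10.11, 9.58 and 9.84 in KO 1 to KO 3, against 10.05, 10.16 and 10.68 in WT 1 to WT 3. Its difference was -0.45 (SE 0.22), and -0.26 without WT 3. These 3 probe sets were designed on the same sequence record and are not independent readings of the gene. The dimmest, 1438303_at, read 5.89, 5.87 and 5.36 in KO 1 to KO 3, against 5.69, 6.07 and 6.72 in WT 1 to WT 3. Its difference was -0.45 (SE 0.34), and -0.17 without WT 3.

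Tgfb3, the ligand whose loss delays lung maturation in mice, differed by less than the spread between arrays. Its single probe set, 1417455_at, read 7.83, 7.94 and 7.73 in KO 1 to KO 3, against 8.13, 8.11 and 7.75 in WT 1 to WT 3. KO 1 and KO 2 lay above WT 3, so the groups overlapped. The difference was -0.16 (SE 0.16, limma adjusted p = 0.963), -0.28 without WT 3 and -0.09 without WT 1. Within station 2 it was 0.09 (SE 0.26).

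The receptors differed by at most 0.19 in either direction over their 8 probe sets, with none past the test. Tgfbr1, the type I receptor kinase, read 10.59, 10.27 and 10.24 in KO 1 to KO 3 on its brightest probe set (1420895_at), against 10.51, 10.67 and 10.49 in WT 1 to WT 3. KO 1 lay among the arrays labelled WT and the other 2 below them. The difference was -0.19 (SE 0.13, unadjusted 95% interval -0.50 to 0.12). The dimmer probe sets 1420894_at and 1420893_a_at differed by -0.11 (SE 0.20) and -0.14 (SE 0.16), and all 3 rest on the same sequence record.

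Tgfbr2, the type II receptor that binds the ligand first, read 13.12, 12.81 and 12.56 in KO 1 to KO 3 on probe set 1426397_at, against 12.67, 13.12 and 12.87 in WT 1 to WT 3. The ranges overlapped almost wholly. The difference was -0.05 (SE 0.19, interval -0.51 to 0.40), and its sign turned without KO 3 (0.08) or without WT 2 (0.06). Probe set 1425444_a_at read 8.57, 8.14 and 7.51 in KO 1 to KO 3, against 7.88, 8.47 and 8.31 in WT 1 to WT 3 (difference -0.15, SE 0.31). The third, 1422019_at, was dim, at 4.50 to 4.54 in the arrays labelled KO and 4.48 to 4.51 in those labelled WT.

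Tgfbr3, or betaglycan, a coreceptor that presents ligand and is needed most for Tgfb2, varied little between arrays. Probe set 1433795_at read 11.36, 11.09 and 11.36 in KO 1 to KO 3, against 11.34, 11.31 and 11.30 in WT 1 to WT 3. KO 2 was the single low array. The difference was -0.05 (SE 0.10), and the interval ran from -0.29 to 0.20, the tightest among the brightest probe sets of the 10 genes. Probe set 1425620_at differed by -0.05 as well (SE 0.18).

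The latent binding proteins read lower on average in the arrays labelled KO, except Ltbp3. Ltbp1, the best studied carrier of latent TGF-beta, had the second probe set with separate groups. Probe set 1448870_at read 8.83, 8.68 and 8.88 in KO 1 to KO 3, against 8.96, 9.08 and 9.07 in WT 1 to WT 3. The gap between KO 3 and WT 1 was 0.08. The means were 8.80 ± 0.10 in the arrays labelled KO and 9.04 ± 0.07 in those labelled WT (SD, n = 3 each), a difference of -0.24 (SE 0.10, limma adjusted p = 0.963), or 0.847-fold. It ran from -0.28 to -0.18 when 1 array was left out, and was -0.27 (SE 0.21) within station 2. The other Ltbp1 probe sets, 1447547_at and 1419786_at, were dim in both groups.

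Ltbp2, which lies on microfibrils and does not bind latent TGF-beta, varied most between arrays of 1 label among the brightest probe sets. Probe set 1418061_at read 9.94, 7.89 and 8.45 in KO 1 to KO 3, against 8.32, 8.77 and 9.35 in WT 1 to WT 3. The arrays labelled KO spanned the whole range of those labelled WT, with KO 1 above and KO 2 below them. The difference was -0.06 (SE 0.57), and it was -0.65 without KO 1 and 0.38 without KO 2. The interval of -1.47 to 1.35 covers changes of more than 2-fold in both directions. Ltbp4, a carrier of latent Tgfb1 that also organises elastic fibres, read 10.50, 9.51 and 9.63 in KO 1 to KO 3, against 9.99, 10.11 and 10.31 in WT 1 to WT 3. KO 1 was the highest array and KO 2 and KO 3 the lowest. The difference was -0.26 (SE 0.28), -0.57 without KO 1 and -0.07 without KO 2.

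Ltbp3, a carrier of latent TGF-beta known for its part in bone, teeth and alveolar walls of mice, was the one member that read higher on all 4 of its probe sets. The brightest, 1438312_s_at, read 12.48, 12.08 and 12.35 in KO 1 to KO 3, against 11.63, 11.70 and 12.12 in WT 1 to WT 3. KO 2 lay just below WT 3, and KO 1 and KO 3 were higher than any array labelled WT. The means were 12.30 ± 0.20 in the arrays labelled KO and 11.82 ± 0.26 in those labelled WT (SD, n = 3 each), a difference of 0.48 (SE 0.17, limma adjusted p = 0.963), or 1.40-fold. Within station 2 it was 0.18 (SE 0.21, limma adjusted p = 1). Probe set 1418049_at read 11.29, 10.79 and 11.06 in KO 1 to KO 3, against 10.76, 10.94 and 10.79 in WT 1 to WT 3, a difference of 0.22 (SE 0.15), 0.09 without KO 1 and 0.34 without KO 2.

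The dimmer pair of Ltbp3 probe sets gave larger differences with another order of the arrays. Probe set 1437833_at read 6.55, 8.15 and 8.63 in KO 1 to KO 3, against 7.26, 5.05 and 6.13 in WT 1 to WT 3, a difference of 1.63 (SE 0.76, limma adjusted p = 0.963). Probe set 1456189_x_at, designed on the same sequence record, read 6.72, 7.80 and 8.12 in KO 1 to KO 3, against 7.09, 6.45 and 6.47 in WT 1 to WT 3, a difference of 0.88 (SE 0.42). On both, KO 2, KO 3 and WT 1 were the 3 highest arrays. The same 3 arrays were brighter on probe sets without a gene name. The median of such probe sets above the array's midpoint, less that of named ones, was -1.97, -1.19 and -0.66 log2 in KO 1 to KO 3, against -0.87, -1.98 and -1.88 in WT 1 to WT 3. With this measure as a covariate the differences were 1.13 (SE 0.30, limma adjusted p = 0.749) and 0.62 (SE 0.19, limma adjusted p = 0.782), and those of the bright pair were 0.54 (SE 0.17) for 1438312_s_at and 0.27 (SE 0.14) for 1418049_at. The measure comes from these same arrays and was chosen after seeing the data, so these values only describe the arrays. Its part in the Ltbp3 differences was not tested.

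**Figure D4:**
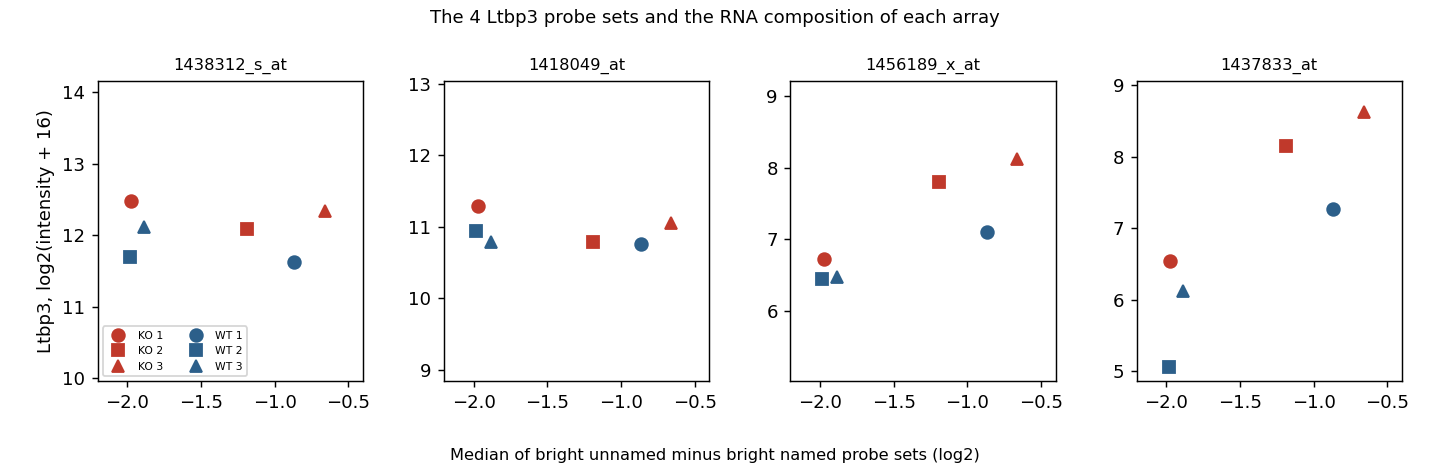
Log2(intensity + 16) of the 4 Ltbp3 probe sets on each array against the excess of unnamed over named probe sets (difference of medians, log2), with the same 4.2 log2 span on every vertical axis, red for arrays labelled KO and blue for those labelled WT. In the 2 panels on the right KO 2, KO 3 and WT 1 are the 3 highest arrays, and in the 2 on the left KO 1 is the highest.

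Around the members, 63 of 66 other genes of the pathway were measured, and none passed the test (limma adjusted p 0.963 or higher). By their brightest probe sets 45 read lower and 18 higher. Of the 62 that were not dim 44 read lower (71%), with a median difference of -0.09, where 53.9% of the 11361 genes that were not dim read lower, with a median of -0.02. In 4 of the 62 every array labelled KO was lower than any labelled WT, and in 3 every one was higher, where these shares were 5.91% and 5.47% over the genes that were not dim. An unadjusted p under 0.05 was reached by 7 of the 62, against 6.25% of the 11361 genes in the same fit. These counts include genes that are not dim through 1 group only. Among the 7, Itgb6 is so through the arrays labelled WT (mean 5.77, against 4.98 in those labelled KO). Acvr1c is so through the arrays labelled KO (5.40, against 4.87), and is also among the 3 with every array labelled KO higher.

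Among the genes that activate the latent ligand, 8 of 10 read lower, with a median of -0.06. Over all genes that were not dim 53.9% read lower, the share to set beside this and each later group. Itgb6, the beta chain of the epithelial integrin that frees Tgfb1 and Tgfb3, read 4.70, 5.44 and 4.80 in KO 1 to KO 3, against 5.89, 5.42 and 5.99 in WT 1 to WT 3 (difference -0.79, SE 0.26). KO 2 and WT 2 overlapped, and the other arrays labelled KO were lower, at a level near the array's median. The 6 epithelial markers had a summed intensity of 54540 to 119523 in the arrays labelled KO and 108734 to 150352 in those labelled WT, with a median difference of -0.39 and none past the test. Of the 6 markers 5 read lower, and Epcam read higher by 0.41. The lowest sum is that of KO 1, where Sftpc read 12.71, against 15.37 to 15.79 on the other 5 arrays. Without Sftpc the sums were 47840 to 64894 in the arrays labelled KO and 59121 to 93530 in those labelled WT. The part of the epithelium in the Itgb6 difference was not tested. Nrros, a membrane anchor of latent Tgfb1 on myeloid cells, differed by -0.51 (SE 0.24). Among the matrix partners, 6 of 8 read lower, with a median of -0.13, and the 2 genes with the smallest p went opposite ways. Dcn, the proteoglycan decorin, which binds TGF-beta, read 10.24, 10.51 and 10.96 in KO 1 to KO 3, against 9.55, 9.29 and 9.57 in WT 1 to WT 3. The groups did not overlap, with a difference of 1.10 (SE 0.20, limma adjusted p = 0.963) and of 1.00 within station 2. Fbln5, or fibulin 5, which binds elastin and LTBPs, read 11.42, 11.61 and 10.82 in KO 1 to KO 3, against 12.07, 12.46 and 11.97 in WT 1 to WT 3. The groups did not overlap, with a difference of -0.88 (SE 0.24).

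Of 7 other receptors of the family 4 read lower (median -0.10). Bambi, a decoy receptor without a kinase that dampens the signal, differed by 0.39 (SE 0.12), and Acvr1c, a type I receptor of activin and nodal ligands, by 0.53 (SE 0.17) at a level near the median, and by 0.34 without KO 1. On both, the arrays labelled KO were all higher than any labelled WT. Of 18 SMADs and their regulators 11 read lower (median -0.05). Nedd4l, a ubiquitin ligase that turns over activated SMAD2 and SMAD3, read 12.16, 12.41 and 12.29 in KO 1 to KO 3, against 12.75, 12.52 and 12.67 in WT 1 to WT 3 (difference -0.36, SE 0.11), and Ski, a SMAD corepressor, differed by -0.49 (SE 0.23). Of 20 target genes 16 read lower, with a median difference of -0.13 and a median SE of 0.24. Tgfbi, a matrix protein named for its induction by TGF-beta, read 11.90, 11.16 and 11.34 in KO 1 to KO 3, against 12.07, 12.16 and 12.13 in WT 1 to WT 3. That is a difference of -0.66 (SE 0.20), with no overlap between the groups. Cdkn2b, a cell cycle inhibitor induced by TGF-beta, had a difference of -1.73 (SE 0.83), and of -0.96 without KO 1, in which it read 7.28. Mesenchymal cells make many of these matrix proteins. The mesenchyme marker list holds Dcn itself. Its other 4 genes (Pdgfra, Pdgfrb, Tcf21 and Tbx4) had a summed intensity of 26901 to 32195 in the arrays labelled KO and 29572 to 31909 in those labelled WT, and 3 of the 4 read lower, with none past the test. Their part in these differences was not tested.

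**Figure D5:**
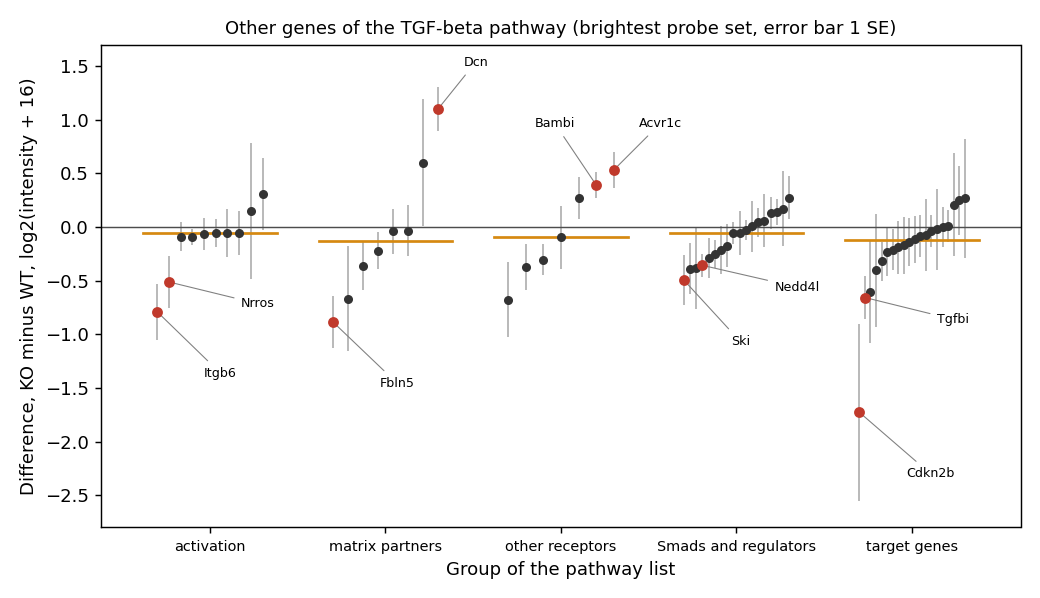
Difference between the arrays labelled KO and WT in log2(intensity + 16) with 1 SE for the brightest probe set of 63 other pathway genes, sorted within 5 groups, with the group medians as orange lines and the 2 genes of smallest p per group in red. Most genes lie within 0.5 of 0, Dcn (1.10) is the highest and Cdkn2b (-1.73) the lowest.

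The genes whose array-to-array pattern lay nearest to each ligand were sought among the 9096 brighter genes, as the root mean square difference over the 6 arrays after each gene's own mean was subtracted. For Tgfb1 they were Ppp1r16b (0.10 log2), Dag1 (0.10) and Ppm1f (0.10), which differed by -0.73 (SE 0.22), -0.72 (SE 0.23) and -0.67 (SE 0.23) between the labels. For Tgfb2 they were Kcne4 (0.09), Fignl1 (0.10) and Birc5 (0.11), each highest in WT 3 as Tgfb2 was. For Tgfb3, which varied little, they were Plp2, Polr3f and Gas6, at 0.05 to 0.06. The genes were picked for likeness on these same 6 arrays, so their label differences and the WT 3 peak follow from the choice. The likeness describes these arrays and carries no test.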

How the data were processed

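Per the file headers and labels, the arrays are Affymetrix Mouse430_2 and were hybridised with biotin-labelled RNA made from 5 micrograms of total RNA. The authors deposited 1 linear intensity per probe set and array. GCRMA and MAS5 both stand in the submitters' processing notes, without version, role or order, so the source of the intensities and the scaling of the arrays are not stated. No intensity was negative and the medians per array lay between 20.6 and 24.1, so the arrays were taken as already normalised to each other. GCRMA and MAS5 treat dim probes differently, so values near the floor are the least certain.

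Of 45101 probe sets 64 controls were left out, and 45037 were tested. Names came from the platform's annotation, with symbols updated by gene ID for 34741 of the 34945 probe sets that name 1 gene (gene table of GRCm38.p6). A pseudocount of 16 was added before log2. Differences were tested two-sided with limma (version 3.58.1, run under R 4.3.3), using lmFit and an eBayes step that models the trend with intensity. P-values were adjusted by Benjamini-Hochberg across the tested probe sets, with a threshold of 0.05. The fit was run on simulated data with added changes of known size, to check their estimate and sign. Nearly all member differences were smaller than the added changes, and how often changes of that smaller size would pass was not tested. Unless another setting is named, adjusted p-values are from this fit and errors on differences are its SE. Each alternative was fitted and adjusted on its own. Errors on means are SD over 3 arrays. For other pathway genes, the brightest probe set, by its mean across arrays, stood for the gene. Named beside the members were Gata6, the 2 genes of smallest p in each of 5 pathway groups and the 3 genes nearest to each ligand. The members and lists were chosen with earlier results of these data known. Residuals of arrays with the same number correlated at -0.76, 0.02 and -0.48, so the numbers were not taken as pairs. Listed genes with no probe set naming them alone were not analysed here. Of the remaining marker lists, with no member past the test, median differences were -0.39 for epithelium, -0.03 for mesenchyme, -0.29 for smooth muscle, -0.25 for mesothelium, -0.28 for red cells, 0.18 for heart muscle, -0.21 for liver and 0.002 for thymus. Summed liver intensities were uneven between arrays. They were 1367, 154 and 439 in KO 1 to KO 3, and 38, 548 and 451 in WT 1 to WT 3. Alb read highest in KO 1 (10.31) and lowest in WT 1 (4.84), a difference of 1.57 (SE 1.21). Among the 4 liver markers 2 read lower and 2 were dim. Alternatives covered normalisation, pseudocount, filter, choice of probe set, array weights, replicate block, fluidics station, RNA composition and each array left out.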

Additional observations from a re-analysis of the deposited data

How the results depend on the processing

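None of the 24 member probe sets and none of the 63 pathway genes passed under any of the 18 alternatives, with a lowest adjusted p of 0.483 for a member. Over all probe sets the count of calls was 0 in 15 alternatives, among them the replicate block (0 calls), which leaves every difference as it is. It was 1 with median centring, 1 with the brightest probe set per gene and 37 with fluidics station as a block. Leaving out 1 array gave 0 calls each time. Of 413 recomputed member differences 382 kept their sign and 31 reversed. Not all of these could reverse. Fits without the intensity trend, with the dim filter, on the brightest probe sets or with the replicate block leave each difference as it is. Station as a block and station 2 alone give the same differences, which are counted under each. The 12 probe sets that never reversed include all 4 of Ltbp3, the brighter of Tgfb1, the brightest of Ltbp1, 3 of Tgfb2 and that of Ltbp4. The differences of the brighter Tgfb1 probe set ran from -1.09 to -0.51 and those of the brightest Ltbp3 probe set from 0.18 to 0.64. The cause of the reversals was not tested. Station as a block and station 2 alone reversed Tgfb3 (0.088), the dim Tgfb1 probe set (-0.0011) and Ltbp1 1419786_at (0.00019). Median centring reversed the dim probe sets of Tgfb1 (-0.033) and Tgfbr2 (-0.014), and quantile normalisation that of Tgfb1 (-0.0013). Array weights reversed Tgfb2 1423250_a_at (0.0064), Ltbp1 1447547_at (0.16) and 1419786_at (0.0043), and Ltbp2 (0.16). The composition covariate, chosen after seeing the data, reversed Tgfbr2 1426397_at (0.060) and 1425444_a_at (0.043), Ltbp1 1447547_at (0.032) and Ltbp2 (0.24). Without 1 array the range was -0.00041 to 0.0038 for Tgfb1 1445360_at, -0.52 to 0.12 for Tgfb2 1423250_a_at, -0.22 to 0.0065 for Tgfbr1 1420893_a_at, -0.20 to 0.082 for Tgfbr2 1426397_at and -0.40 to 0.13 for 1425444_a_at. It was -0.092 to 0.043 for Tgfbr3 1433795_at, -0.10 to 0.027 for 1425620_at, -0.12 to 0.14 for Ltbp1 1447547_at, -0.052 to 0.0030 for 1419786_at and -0.65 to 0.38 for Ltbp2. In station 2 and its block the arrays labelled WT are represented by 1 array, assumed to vary like the others. The number of arrays limits every value, and the 4 dim probe sets say little on their genes.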
